A study of Cicer arietinum with 8 samples.

Results

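The genes described here had their highest transcript level in watered roots of the chickpea (Cicer arietinum) genotype ICC4958, well above the other 3 conditions of the study. ICC4958 is drought-tolerant and is written DT, and ICC1882 is drought-sensitive and is written DS. The groups are droughted ICC4958, written DT(D), watered ICC4958, DT(C), droughted ICC1882, DS(D), and watered ICC1882, DS(C). Roots of plants aged 27 days were taken from all 4 groups. Per the labels, drought was imposed on plants aged 16 days by giving no water for 11 days, and controls were watered on alternate days; the study's methods give an earlier start and a longer stress. All groups were grown in a chamber, so no group shows field drought, and each genotype stands for itself and not for tolerance or sensitivity in general. The study sequenced 8 libraries, 2 for each condition, and the values used here are 1 FPKM (a fragment count scaled to transcript length and to the total mapped) per locus and condition, pooled over both libraries. The pooled values carry no replicate error and no depth, so no test was run here, and every comparison is a description of 4 pooled values. The p-values that the study drew from its libraries were not used.

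The members were selected on the same values that are described: on the scale log2(FPKM + 1), the level in DT(C) had to lie at least 1.5 above each of the other conditions, and DS(C) had to lie less than 2 above the higher of the droughted conditions. Of 27881 loci with a gene identifier, 126 met this rule. The first clause alone was met by 136 loci, and the limit on DS(C) left out 10 of them. That DT(C) is highest, that DT(D) is below it and that DS(C) is below it were thus fixed by the choice and are no finding. The choice did not fix the order of the other 3 conditions or the place of the genes among the identifiers. It limited, without fixing, how far DS(C) could lie above the droughted conditions and so the drought response in ICC1882: the 10 loci left out were all lower in DS(D/C), by log2 ratios from -3.59 to -2.22. The margin limited increases in ICC1882 as well, since DS(D) had to lie at least 1.5 below DT(C). It also sets a floor on the level in DT(C).

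Roots sense drying soil, and their transcript pools shift as growth slows, the hormone abscisic acid accumulates and protective proteins and solutes are made. Genes that serve growth, such as those for cell wall synthesis, are generally less active in droughted roots. In RNA from whole roots, fewer cells of a type and less RNA per cell cannot be told apart. The loci carry identifiers of the kabuli chickpea genome with no gene names, and 0 of these identifiers stood in the RefSeq gene table used here, so root marker genes were not checked and roles can be stated for those genes alone that the study names.

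Among the members, the study names 1 gene, Ca_04471, which it calls RLP21. Receptor-like proteins are membrane proteins with leucine-rich repeats outside the cell and no kinase domain, known in Arabidopsis and tomato for their part in defence and development. The gene lies in the QTL-hotspot, a genomic interval that chickpea genetics has tied to root traits and drought tolerance. Its FPKM was 1.92 in DT(D), 12.4 in DT(C), 3.43 in DS(D) and 3.69 in DS(C). It was at a similar low level in both ICC1882 conditions, with a log2 ratio DS(D/C) of -0.10, and stood 3.37 times above the next condition in watered ICC4958. Its margin of 1.52 is close to the threshold, and it no longer met the rule when the columns were rescaled to the same total or when levels were centred within 10 groups of similar level.

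A second QTL-hotspot gene, Ca_04504, met the margin and was left out by the limit on DS(C). It is called a DREB by the study, a family of transcription factors that bind the dehydration-responsive element in promoters. Ca_04504 had an FPKM of 17.7 in DT(D), 350.2 in DT(C), 10.1 in DS(D) and 122 in DS(C). It was high in watered roots of both genotypes and low in droughted roots of both. Ca_04471 and Ca_04504 were the 2 of 17 genes in the study's RT-qPCR primer table with the margin in DT(C). Their primers are shown because they are the designed sequences of the study's RT-qPCR for a member and for a gene left out by the limit. The FPKM values given here come from sequencing and do not rest on these primers. Each primer is written from 5′ to 3′, with no base set apart.
Ca_04471 forward: ttggttggattcattcctgatg
Ca_04471 reverse: ggacaaattcaagccatgca
Ca_04504 forward: ggtgtgtgaagtgagggaacct
Ca_04504 reverse: cgccatctcgggattagga
The RLP21 primers hold 22 and 20 bases, with 40.9% and 45% G or C. The DREB primers hold 22 and 19 bases, with 54.5% and 57.9% G or C.

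In DT(C), member FPKM ranged from 2.02 to 984, with a median of 48.8, and 111 of the 126 members reached an FPKM of 10. The median of all 17668 loci with an FPKM of at least 1 in any condition was 16.6 in DT(C). In the other conditions the member medians were 7.10 in DT(D), 6.38 in DS(D) and 11.3 in DS(C). The summed FPKM of the members was 1639 in DT(D), 11596 in DT(C), 1571 in DS(D) and 2949 in DS(C). These sums made up 0.121% of all FPKM in DT(D), 0.841% in DT(C), 0.130% in DS(D) and 0.177% in DS(C). Both droughted conditions held nearly the same amount of these transcripts, and DS(C) held more than either.

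The widest margin was that of Ca_09562, with an FPKM of 2.32 in DT(D), 49.1 in DT(C), 3.12 in DS(D) and 2.83 in DS(C). Its other 3 values lie within 0.31 of each other on the log2(FPKM + 1) scale, so it stood out in watered ICC4958 alone, 15.8 times above the next condition. The locus that carries both Ca_13523 and Ca_13524 had the same shape, with an FPKM of 5.38 in DT(D), 60.4 in DT(C), 5.49 in DS(D) and 5.03 in DS(C). Ca_13026 had an FPKM of 0.0979 in DT(D) and 10.1 in DT(C), and was listed at 0 in DS(D) and DS(C). It was nearly undetected outside watered ICC4958. Ca_09377 was the last of the 4 members with a margin of at least 3, with an FPKM of 0.81 in DT(D), 30.8 in DT(C), 0.927 in DS(D) and 2.60 in DS(C). In Ca_09377, unlike the locus of Ca_13523 and Ca_13524, DS(C) lay above both droughted conditions.

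Ca_09850 had an FPKM of 11.0 in DT(D), 141 in DT(C), 17.2 in DS(D) and 19.4 in DS(C), and Ca_01783 had 2.87 in DT(D), 31.4 in DT(C), 1.98 in DS(D) and 3.86 in DS(C). Ca_08229 had an FPKM of 3.51 in DT(D), 113 in DT(C), 11.4 in DS(D) and 16.8 in DS(C). In Ca_08229 the droughted genotypes differed as well, and DT(D) was the lower. Ca_04097 had an FPKM of 0.92 in DT(D), 21.6 in DT(C), 0.99 in DS(D) and 2.71 in DS(C). Ca_11637 had 2.25 in DT(D), 56.6 in DT(C), 3.21 in DS(D) and 8.99 in DS(C). In these 2 members, as in Ca_09377, watered ICC1882 lay above both droughted conditions and far below watered ICC4958. Over all 126 members, the margin ranged from 1.51 to 3.61 with a median of 1.82, and 38 members had a margin of at least 2.

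The most abundant member was Ca_04114, with an FPKM of 111 in DT(D), 984 in DT(C), 151 in DS(D) and 219 in DS(C). Ca_07614 had 61.1 in DT(D), 512 in DT(C), 94.9 in DS(D) and 124 in DS(C), and Ca_07256 had 88.2 in DT(D), 493 in DT(C), 80.5 in DS(D) and 124 in DS(C). These 3 transcripts were present in every condition, so their peak is a rise over a sizeable level and not an appearance. The locus of Ca_17581 and Ca_17582 had an FPKM of 56.8 in DT(D), 444 in DT(C), 48.4 in DS(D) and 154 in DS(C). Ca_03143 had 45.5 in DT(D), 412 in DT(C), 51.6 in DS(D) and 131 in DS(C). Ca_04052 had 41.6 in DT(D), 393 in DT(C), 33.7 in DS(D) and 115 in DS(C). In these 3 loci the droughted genotypes were close to each other, and watered ICC1882 was about midway on the log scale between them and watered ICC4958. Ca_11127 had an FPKM of 31.0 in DT(D), 363 in DT(C), 26.7 in DS(D) and 63.6 in DS(C), and was the one locus among both the 10 widest margins and the 10 highest levels. Ca_05815 had 17.6 in DT(D), 357 in DT(C), 24.5 in DS(D) and 82.3 in DS(C). Ca_12195 had 28.8 in DT(D), 280.1 in DT(C), 15.9 in DS(D) and 91.1 in DS(C). In Ca_11381 the value of 65.5 in DT(D) came close to the 80.5 of DS(C), against 260.0 in DT(C) and 35.4 in DS(D).

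**Figure D1:**
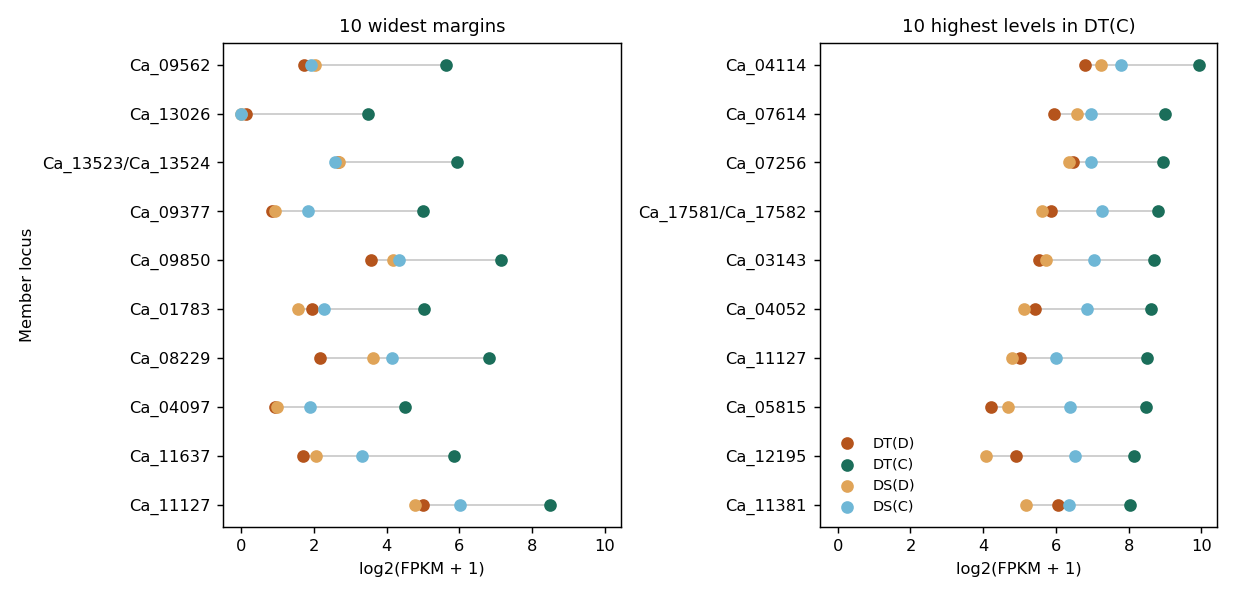
FPKM of the 10 members with the widest margin (left) and the 10 with the highest level in DT(C) (right), on the log2(FPKM + 1) scale, 1 pooled value per condition with no error. DT(C) is the rightmost point of every locus by the rule, and in the right panel DS(C) is next in every locus.

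The word "only" holds for a part of the members. The second-highest condition was DT(D) in 15 members, DS(D) in 11 and DS(C) in 95, and the other 5 were listed at 0 in all 3. DS(C) was thus second in 75.4% of the members and DT(D) in 11.9%. Over all 4689 loci whose highest value was in DT(C), by any distance, DS(C) was second in 33.0% and DT(D) in 41.4%. A level that peaked steeply in watered ICC4958 was therefore followed more often by the other watered condition than by the same genotype under drought. The lowest condition was DT(D) in 49 members, DS(D) in 64 and DS(C) in 7, with a tie in 6.

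In 74 members (58.7%) the other 3 conditions lay within 1 of each other on the log2(FPKM + 1) scale, so that watered ICC4958 stood apart from the rest. Even so, 8 of these 74 were lower in DS(D/C) by at least 1 as a log2 ratio, Ca_09377 and Ca_04097 among them. Adding 1 narrows distances, most of all at low levels. Ca_01612 and Ca_26079, at higher levels, had ratios of -1.03 and -1.02, just past the threshold. In 26 members (20.6%) DS(C) lay at least 1 above both droughted conditions, so both genotypes had more of the transcript with water. The median FPKM of these 26 in DT(C) was 123, and that of the 74 was 35.1. In DS(C) the medians were 37.7 for the 26 and 7.86 for the 74. One member, Ca_20640, had DT(D) at least 1 above both ICC1882 conditions, with an FPKM of 10.3 in DT(D), 43.5 in DT(C), 0.301 in DS(D) and 2.03 in DS(C). Its levels in ICC4958 lay above both levels in ICC1882. The remaining 25 members fell between these shapes, whose limits were set after the values were seen.

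**Figure D2:**
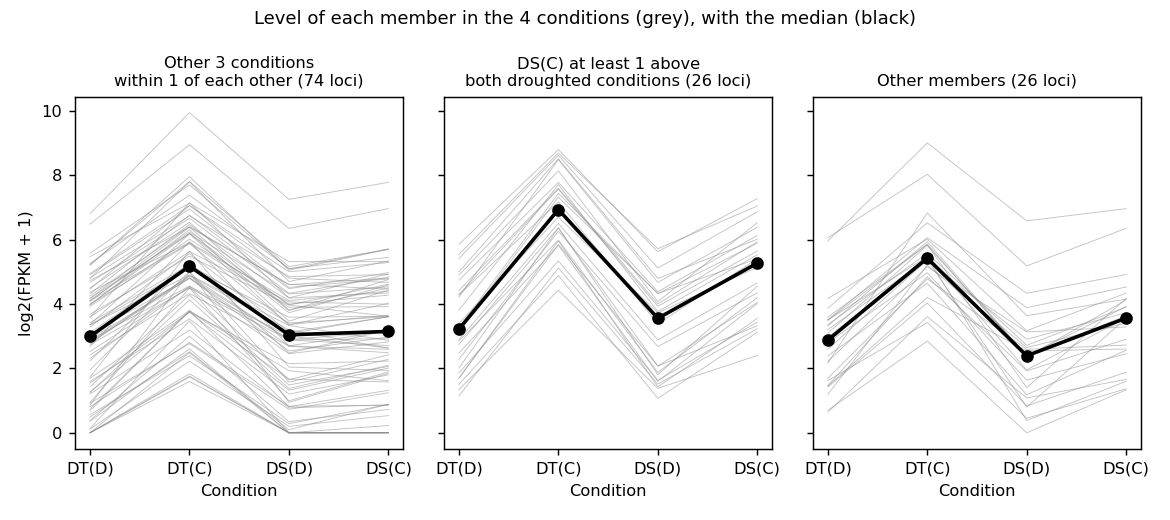
Levels of all 126 members as log2(FPKM + 1) in the 4 conditions, 1 grey line per locus with the median in black, for the 74 members with the other conditions within 1 of each other, the 26 with DS(C) at least 1 above both droughted conditions, and the other 26. The black line is nearly level outside DT(C) in the first panel and has a second, lower rise at DS(C) in the second.

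The largest members of each kind show the difference. With DT(D) second, Ca_01934 had an FPKM of 43.4 in DT(D), 139 in DT(C), 38.9 in DS(D) and 38.9 in DS(C), and Ca_10587 had 29.1 in DT(D), 123 in DT(C), 21.9 in DS(D) and 26.4 in DS(C). Ca_02116 had 21.7 in DT(D), 91.9 in DT(C), 13.1 in DS(D) and 21.6 in DS(C), so that DT(D) and DS(C) were nearly equal. With DS(D) second, Ca_16636 had 21.1 in DT(D), 132 in DT(C), 26.9 in DS(D) and 24.5 in DS(C). Ca_10666 had 18.0 in DT(D), 83.9 in DT(C), 23.4 in DS(D) and 21.1 in DS(C). In all of these the order among the lower conditions rests on small distances that no error is available for.

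The 5 members listed at 0 in DT(D), DS(D) and DS(C) had low levels in DT(C): an FPKM of 4.63 for Ca_05489, 2.57 for Ca_19983, 2.38 for Ca_14768, 2.32 for Ca_23777 and 2.02 for Ca_14200. No fold is given for them. At this level few reads stand behind a value, and a listed 0 does not show that the transcript was absent.

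At the threshold, the last members inside were Ca_12056, Ca_13721 and Ca_13726. Ca_12056 had an FPKM of 0.621 in DT(D), 6.20 in DT(C), 0 in DS(D) and 1.52 in DS(C). Ca_13721 had 19.6 in DT(D), 59.2 in DT(C), 16.3 in DS(D) and 20.1 in DS(C), and Ca_13726 had 9.24 in DT(D), 34.0 in DT(C), 11.0 in DS(D) and 11.3 in DS(C). Their margins were 1.51 each. The first loci outside were Ca_17273, with an FPKM of 35.3 in DT(D), 153 in DT(C), 41.5 in DS(D) and 53.6 in DS(C), Ca_02262, with 16.7 in DT(D), 217 in DT(C), 15.3 in DS(D) and 76.8 in DS(C), and Ca_01334, with 8.39 in DT(D), 25.2 in DT(C), 6.99 in DS(D) and 6.85 in DS(C). Their margins were just under 1.5, 1.49 and 1.48. Ca_02262 also failed the limit on DS(C), which lay 2.14 above the higher droughted condition on the log2(FPKM + 1) scale. Among the members, 19 had a margin under 1.6. The edge of the group is arbitrary for these, as for Ca_17273 and Ca_01334.

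The 10 loci left out by the limit had DT(C) highest and DS(C) clearly second. Ca_03261, the most abundant of them, had an FPKM of 64.2 in DT(D), 1554 in DT(C), 72.9 in DS(D) and 524 in DS(C). Ca_03133, the next, had 19.2 in DT(D), 465 in DT(C), 22.2 in DS(D) and 127 in DS(C). They continue the second shape above, in which the watered level was above the droughted one in both genotypes and was higher in ICC4958.

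Each comparison was made as the log2 of one FPKM over the other, for loci with an FPKM of at least 1 in either condition, and a locus counted as higher or lower where the ratio was at least 1 in size. In DT(D/C), 126 of 126 members were lower, beside 7.70% of all loci, and in DT(C)/DS(C), 126 of 126 were higher, beside 9.04%; both counts follow from the rule. The member median was -2.79 in DT(D/C) and 2.01 in DT(C)/DS(C).

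The response of ICC1882 to drought was limited by the rule on both sides, but not fixed by it. The cap on DS(C) limited decreases. The margin limited increases, because DS(D) had to lie at least 1.5 below DT(C). The member log2 ratio DT(C)/DS(C) had a median of 2.01 and an upper quartile of 2.34. Given their DS(C), most members could therefore not reach a ratio of 1 in DS(D/C), so a count near 0 higher follows largely from the rule. In DS(D/C), 113 members could be compared. Of these, 50 were lower, which is 44.2%, beside 7.75% of all 17191 loci compared, and 0 were higher, beside 6.13%. The median log2 ratio was -0.85 over the 112 members with a ratio and -0.01 over all loci, and 98 of the 112 lay below 0. In the median, members thus had a lower level under drought in the sensitive genotype too. The decrease was smaller than in the tolerant one, an order that the rule favours because it demands a decrease in ICC4958 alone. The column total of DS(C) was the largest of the 4, and rescaling all columns to the same total adds 0.47 to every DS(D/C) ratio. With the members kept as chosen, 33 were then lower, beside 4.11% of all loci, and 1 was higher, beside 17.9%. The member median was then -0.39 and that of all loci 0.45. The gap of 0.84 between them could not change, because the rescaling shifts both alike.

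The 3 members with the lowest DS(D/C) ratio and an FPKM of at least 1 in both conditions were Ca_19253, Ca_17159 and Ca_17211. Ca_19253 had an FPKM of 10.3 in DT(D), 56.5 in DT(C), 1.64 in DS(D) and 17.1 in DS(C), which gives -3.38 as its log2 ratio in ICC1882. Ca_17159 had 5.69 in DT(D), 81.8 in DT(C), 2.50 in DS(D) and 22.5 in DS(C), and Ca_17211 had 4.55 in DT(D), 55.6 in DT(C), 2.03 in DS(D) and 15.1 in DS(C). In all 3 the droughted level was lower in ICC1882 than in ICC4958. At the other end, Ca_07199 had 5.82 in DT(D), 28.6 in DT(C), 8.15 in DS(D) and 5.19 in DS(C), and its DS(D/C) ratio was 0.65 on the log2 scale, the highest of any member. Ca_00214 had 9.23 in DT(D), 28.9 in DT(C), 9.07 in DS(D) and 6.32 in DS(C). Ca_01675 had 2.24 in DT(D), 12.9 in DT(C), 2.81 in DS(D) and 2.07 in DS(C). These 3 moved in opposite directions in the 2 genotypes, by less than 1 on the log2 scale in ICC1882.

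**Figure D3:**
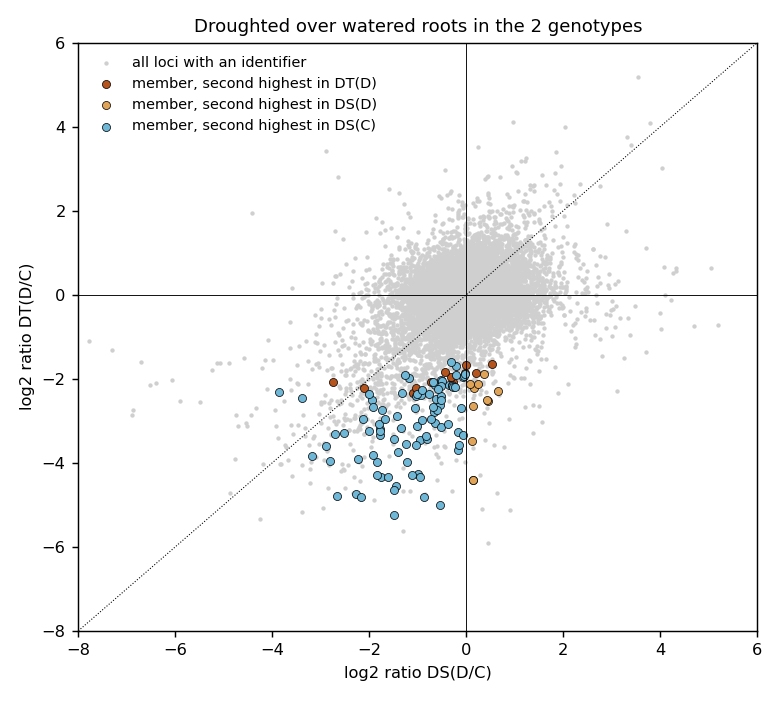
Log2 ratio DT(D/C) against DS(D/C) for the members, coloured by their second-highest condition, and for all loci in grey; the dotted line marks equal ratios, and grey points beyond the axes are not drawn. The members lie low on the vertical axis by the rule, which also limits how far right they can lie, and 98 of 112 lie left of 0.

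Of the 112 members with a ratio in both genotypes, 109 had the larger decrease in ICC4958 and 3 in ICC1882. The rule makes this order likely. The exceptions were Ca_20640 and Ca_19253, given above, and Ca_06299, with an FPKM of 8.23 in DT(D), 40.8 in DT(C), 0.739 in DS(D) and 10.8 in DS(C). All 3 had a droughted level in ICC1882 below 2, against 8 to 11 in ICC4958.

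Drought response in ICC1882 varied with level over all loci, so the members were also set beside loci of similar mean level. All loci with an FPKM of at least 1 in any condition were divided into 10 groups of equal size by their mean log2(FPKM + 1). Each group held between 4 and 19 members. The mean takes in DT(C), which the rule sets high in members, so they were not matched on their level in ICC1882. The limit that the margin puts on DS(D) held for the members of every group, and not for the other loci. The median DS(D/C) ratio over all loci was 0.40 in the lowest group and -0.52 in the highest. The member median was below that of its group in 10 of 10 groups. In the fifth group it was -1.42 beside 0.11, and in the highest group, with 4 members, it was -0.58 beside -0.52, hardly a difference. The lowest group rests on 2 members that could be compared.

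**Figure D4:**
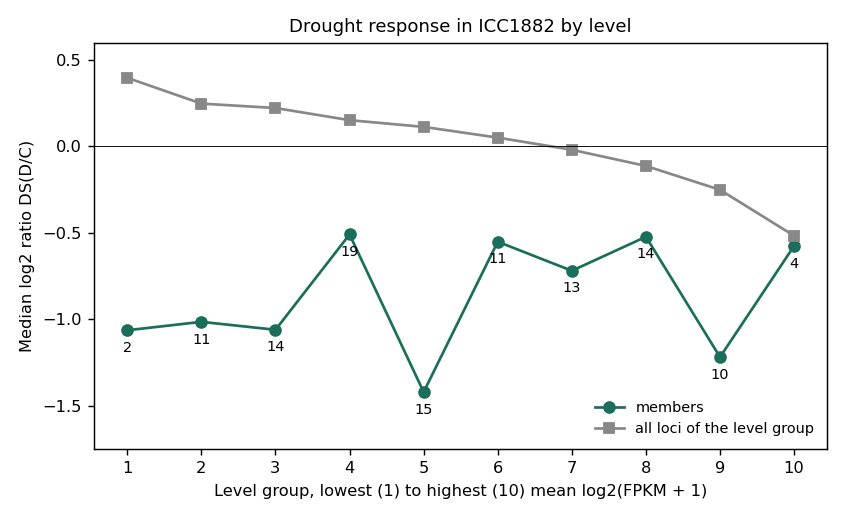
Median log2 ratio DS(D/C) of the members and of all loci in 10 groups of rising mean level; the numbers are the members compared. Member medians lie below the medians of all loci in every group, with the gap nearly closed in the highest. The rule limits increases in the members of every group.

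Under drought the genotypes were close in most members, though in a smaller share of them than of all loci. In DT(D)/DS(D), 109 members could be compared, and 85 of them (78.0%) differed by less than 1 on the log2 scale, beside 90.7% of all loci. Of the members, 15 were higher, beside 5.88% of all 17355 loci compared, and 9 were lower, beside 3.46%. The median log2 ratio was 0.06 for the members and 0.11 for all loci. The members were thus centred where all loci were, with more of them at some distance in each direction. No match by level was made here. The median FPKM of the members was 7.10 in DT(D) and 6.38 in DS(D), beside 15.9 and 15.2 over all expressed loci. All 15 members that were higher in DT(D)/DS(D) were also lower in DS(D/C), and the 2 ratios share the DS(D) value, so a low value there moves both.

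Beside Ca_19253, with a log2 ratio DT(D)/DS(D) of 2.65, the highest ratios among members with an FPKM of at least 1 in both conditions were those of Ca_25576 and Ca_15040. Ca_25576 had an FPKM of 4.23 in DT(D), 24.1 in DT(C), 1.27 in DS(D) and 4.92 in DS(C), and Ca_15040 had 5.96 in DT(D), 30.4 in DT(C), 2.11 in DS(D) and 4.49 in DS(C). The lowest ratios were -2.04 in Ca_01713, -1.71 in Ca_08229 and -1.48 in Ca_17413. Ca_01713 had an FPKM of 1.28 in DT(D), 35.9 in DT(C), 5.27 in DS(D) and 9.63 in DS(C), and Ca_17413 had 1.73 in DT(D), 17.4 in DT(C), 4.84 in DS(D) and 5.07 in DS(C). In these, the tolerant genotype had both the highest and the lowest level of the 4 conditions.

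Peaks were also counted in the other conditions by the same margin and without the limit on DS(C). There were 26 loci with a peak in DT(D), 136 in DT(C), 5 in DS(D) and 50 in DS(C). With a margin of 1 the counts were 96 in DT(D), 339 in DT(C), 46 in DS(D) and 141 in DS(C), and with a margin of 2 they were 12 in DT(D), 40 in DT(C), 2 in DS(D) and 17 in DS(C). Peaks in watered roots outnumbered those in droughted roots in both genotypes, and peaks in ICC4958 outnumbered those in ICC1882 under both treatments, at each of the 3 margins. Of the 50 loci with a peak in DS(C), 30 had their second-highest value in DT(C), so the other watered condition was second most often there as well.

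**Figure D5:**
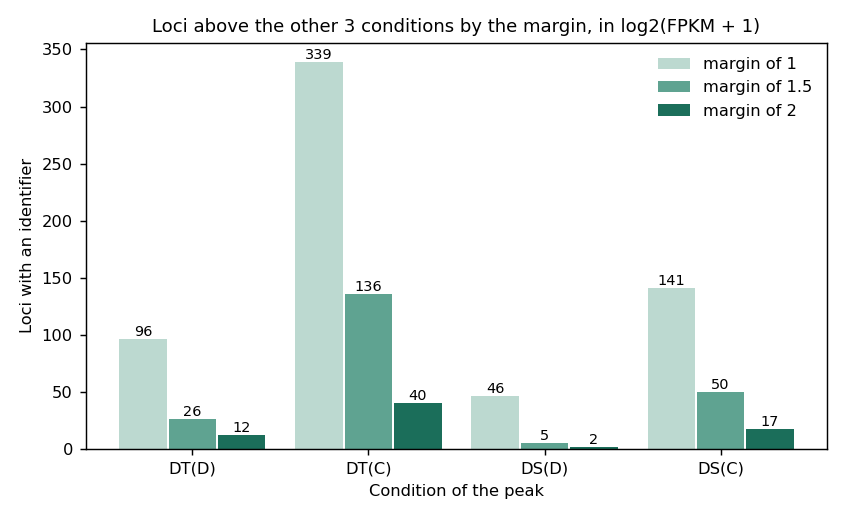
Number of loci with an identifier whose log2(FPKM + 1) in 1 condition lies above each of the other 3 by at least 1, 1.5 or 2, without the limit on DS(C). At a margin of 1.5 the count is 136 in DT(C), against 26 in DT(D), 5 in DS(D) and 50 in DS(C).

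The identifiers are numbered, and the numbers were used as a rough guide to which genes may be neighbours; no coordinates of these loci were used, and a difference between numbers is not a distance. A member with the adjacent number was found for 8 of the 126 members (6.35%). A member at the same or the adjacent number was found for 1.01% of the other expressed loci. Loci peaking elsewhere by the same margin were counted in this way too. The counts with another of their kind were 3 of 26 in DT(D), 0 of 5 in DS(D) and 11 of 50 in DS(C). Closeness of this kind was thus not particular to the members. Loci that share an identifier were not told apart from adjacent ones in these comparisons. Within 5 numbers the shares were 11.9% for members and 4.98% for the other expressed loci. Copies of a gene that share reads could appear as such pairs, and this was not tested.

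Ca_06021 and Ca_06022 are adjacent, and Ca_06019 is close. Ca_06019 had an FPKM of 29.8 in DT(D), 132 in DT(C), 31.0 in DS(D) and 38.1 in DS(C). Ca_06021 had 5.66 in DT(D), 21.6 in DT(C), 6.39 in DS(D) and 6.57 in DS(C), and Ca_06022 had 14.9 in DT(D), 72.1 in DT(C), 12.2 in DS(D) and 23.1 in DS(C). Ca_06020, numbered between them, did not share the pattern, with 44.7 in DT(D), 39.6 in DT(C), 39.1 in DS(D) and 64.2 in DS(C). Ca_15063 had 0.555 in DT(D), 11.2 in DT(C), 1.12 in DS(D) and 2.15 in DS(C), and its neighbour Ca_15064 had 1.21 in DT(D), 33.8 in DT(C), 1.85 in DS(D) and 8.38 in DS(C). Both had the same order of conditions at different levels.

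Ca_20639, adjacent to Ca_20640, had an FPKM of 4.36 in DT(D), 19.0 in DT(C), 5.46 in DS(D) and 4.61 in DS(C). It lacked the genotype difference under drought that its neighbour had. Ca_14768 pairs with a member locus of Ca_14769, which had 0.277 in DT(D), 5.09 in DT(C), 0 in DS(D) and 0.169 in DS(C). A further locus carries the identifier Ca_14769 and was no member, with an FPKM of 27.0 in DT(D), 68.2 in DT(C), 22.2 in DS(D) and 67.1 in DS(C), so that values under this identifier are uncertain. The same holds for Ca_12921, of which 1 locus was a member, with 6.41 in DT(D), 89.9 in DT(C), 6.38 in DS(D) and 24.2 in DS(C), and another was not, with 182 in DT(D), 128 in DT(C), 120 in DS(D) and 171 in DS(C).

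The member Ca_03260 stands between a pair of the loci left out by the limit. It had an FPKM of 2.23 in DT(D), 61.3 in DT(C), 1.69 in DS(D) and 10.7 in DS(C), and Ca_03259 had 3.02 in DT(D), 80.2 in DT(C), 3.64 in DS(D) and 18.4 in DS(C). With Ca_03261, given above, these are 3 consecutive identifiers of the same shape, at levels that differ by over an order of magnitude in DT(C). This run was singled out after its values were seen.

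Loci numbered next to a member but not members themselves were set beside the rest. Of 177 such expressed loci, 31.6% had their highest value in DT(C), beside 26.0% of the 17365 expressed loci that were neither members nor next to one, and 6 (3.39%) lay at least 1 above the other conditions in DT(C), beside 1.19%. Their median log2 ratio DT(C)/DS(C) was 0.15, beside 0.09.

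Of the gene lists the study discusses, which it chose on these samples, the QTL-hotspot genes that it names held 1 member among 18. Phosphatidylinositol signaling (15 genes), glutathione metabolism (14 genes) and glycolysis/gluconeogenesis (23 genes) held 0. The 18 are the transcription factors and differential genes named in the study's text, and not all genes of the interval. DT(C) was the highest condition in 10 of the 18 QTL-hotspot genes, 3 of the 15 signaling genes, 1 of the 14 glutathione genes and 2 of the 23 glycolysis/gluconeogenesis genes, beside 26.5% of all expressed loci. Several of the 18 were named by the study because they were higher in DT(C) than in DS(C). The count of 10 thus follows in part from that choice and does not describe the interval. Close to the margin were Ca_04587, a cytochrome P450 of family 76 in the QTL-hotspot, with an FPKM of 0.640 in DT(D), 3.42 in DT(C), 0.0942 in DS(D) and 0.334 in DS(C), and Ca_00102, an FBPase, which removes a phosphate from fructose bisphosphate in sugar synthesis, with 25.0 in DT(D), 64.2 in DT(C), 13.2 in DS(D) and 16.5 in DS(C). Ca_12485, a PI-PLC, the phospholipase that cleaves phosphatidylinositol lipids into second messengers, had 0.471 in DT(D), 5.47 in DT(C), 0.879 in DS(D) and 1.59 in DS(C). Their margins were 1.43, 1.33 and 1.32. All 3 were highest in watered ICC4958 without reaching the rule.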

How the data were processed

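Root RNA of 8 libraries, 2 per condition, was sequenced. The authors filtered short single-end reads, aligned these with TopHat2 (2.1.1) to the genome of kabuli chickpea, assembled transcripts with Cufflinks (2.2.1) and Cuffmerge, and deposited FPKM values from Cuffdiff (2.2.1), 1 per locus and condition. Tool versions are those of the submitters' processing notes. The 2 libraries of each condition share 1 pooled value, and depth is not recoverable from it.

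The rule was applied to log2(FPKM + 1), with a pseudocount of 1. Ratios were taken without a pseudocount over loci with an FPKM of at least 1 in either condition; a locus at 0 in 1 condition was counted but given no ratio. The members, lists and shapes were chosen with earlier results of these data known, and no test was run. Loci were named by a fixed rule: the 10 widest margins, the 10 highest levels in DT(C), the 3 loci on each side of the threshold, those the study names, the 5 listed at 0 most often, the 3 most abundant per second-highest condition, and the 3 extremes of DS(D/C) and DT(D)/DS(D) in each direction. Loci of the identifier pairs, and those singled out in the text outside this rule, were chosen after their values were seen. Sequences came from the study's primer table. One gene the study names is not reported here. Scripts were tested on simulated data with planted peaks, in Python (3.11.15), pandas (2.3.3), numpy (2.4.6) and scipy (1.17.1).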

Additional observations from a re-analysis of the deposited data

How the results depend on the processing

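No paired analysis was possible because each value pools the 2 libraries of its condition, and leaving out each library in turn could not be run for the same reason. Precision is unknown, and low values rest on few reads. Counts in DT(C) here apply the limit on DS(C). With a pseudocount of 0.1 there were 139 loci with a peak in DT(D), 235 in DT(C), 100 in DS(D) and 126 in DS(C), 122 members were among the 235, and the share with DS(C) second was 50.6%. With no pseudocount, 68 loci peaked in DT(D), 34 in DS(D) and 84 in DS(C), and DS(C) was second in 64.8%. Margins of 1 and 2 gave 96 and 12 loci in DT(D), 318 and 38 in DT(C), 46 and 2 in DS(D), and 141 and 17 in DS(C). They gave 22 and 0 members with another at the same or the adjacent number. At these margins 105 and 15 were lower and 2 and 0 higher in DS(D/C), and 26 and 4 were higher and 18 and 3 lower in DT(D)/DS(D). Rescaled columns gave 12 loci in DS(D) and 32 in DS(C), and 1 higher in DS(D/C), also with the members kept, when 33 were lower. An FPKM of at least 10 left 15 loci in DT(D) and 1 in DS(D). With loci without an identifier there were 42 in DT(D), 27 in DS(D) and 2 higher in DS(D/C). A log2 ratio of 2 left 17 lower in DS(D/C), and 4 higher and 1 lower in DT(D)/DS(D); differences of log2(FPKM + 1) left 9 higher and 5 lower there. Under both pseudocount settings, rescaling and centring by level, 98 of the 126 members met the rule each time. The share second in DS(C), and the count with the members kept, were added after seeing the data. Beyond the settings' own construction, the cause was not tested.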

Other observations

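The same rule was met by 49 of the 3097 loci without a gene identifier (1.58%), beside 126 of the 27881 loci with one (0.452%).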
